A study of Brassica rapa with 9 samples.

Results

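Whole seedlings of Kimchi cabbage (Brassica rapa, cultivar Chiifu) carrying unmodified Arabidopsis thaliana phytochrome B (AtPHYB) were compared by RNA-seq with non-transgenic seedlings (NT). The libraries were taken by their titles, 3 titled AtPHYB and 3 titled NT, and make up 6 of the 9 libraries of the series. The remaining 3 carry a mutant receptor, with the glycine of residue 564 changed to glutamate (G564E), and enter here only where named. All plants were 2 weeks old, grown on MS medium with sucrose in the condition the labels abbreviate as LD, and received no heat treatment. The promoter of the transgene, the number of transgenic lines and whether a library came from a single plant or a pool are not given in the labels used here, so the p-values rest on a spread among libraries that may be technical in part. Plant line and handling follow the genotype and cannot be told apart from the receptor.

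Phytochrome B is a photoreceptor of plants that is switched between an inactive form and an active form by red and far-red light. In its active form it moves into the nucleus, where it lowers the activity of the PHYTOCHROME-INTERACTING FACTOR transcription factors, and through them it changes the expression of many genes of growth and greening. In Arabidopsis the receptor also reads temperature, because its active form reverts in the dark faster when it is warm.

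The deposited counts list 41020 gene IDs per library without gene names, and 1 of them matched the gene table of the CAAS_Brap_v3.01 assembly; that ID had 0 reads in these 6 libraries. Neither the transgene nor the seedling's own phytochrome B could be tied to an ID, and no tissue marker could be looked up, so the genotype and tissue labels were not checked by their genes. Genes are therefore described by ID, abundance, direction and behaviour in each library. Libraries held 17243878 to 20998541 counts.

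Before any test, NT replicate 3 stood apart from the other NT libraries. Along the first principal component of log2 CPM (counts scaled to a common library size), which held 47.2% of the variance, NT replicates 1 and 2 lay at -74.0 and -63.9, and the AtPHYB libraries at 44.3, 53.8 and 43.7. NT replicate 3 lay between the genotypes at -3.91, and was highest of all libraries on the second component. Its Spearman correlations were 0.966, 0.968 and 0.976 with AtPHYB replicates 1, 2 and 3, and 0.966 and 0.962 with NT replicates 1 and 2. By correlation it was clearly closer to AtPHYB than to NT for AtPHYB replicate 3 alone. Its chi-square per degree of freedom, larger where read counts differ more, was 27.5, 35.8 and 19.9 with AtPHYB replicates 1, 2 and 3. With NT replicates 1 and 2 this measure was 30.6 and 39.6. NT replicate 3 differed at least 2-fold from AtPHYB replicates 1, 2 and 3 at 9.51%, 10.4% and 6.64% of genes, and from NT replicates 1 and 2 at 8.80% and 9.68%. NT replicates 1 and 2 differed so from each other at 6.04%. Among the AtPHYB libraries it was 8% for replicates 1 and 2, 3.97% for 1 and 3, and 5.42% for 2 and 3. NT replicate 3 had 20110256 counts and 31804 IDs with a read, both within the range of the other libraries.

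**Figure D1:**
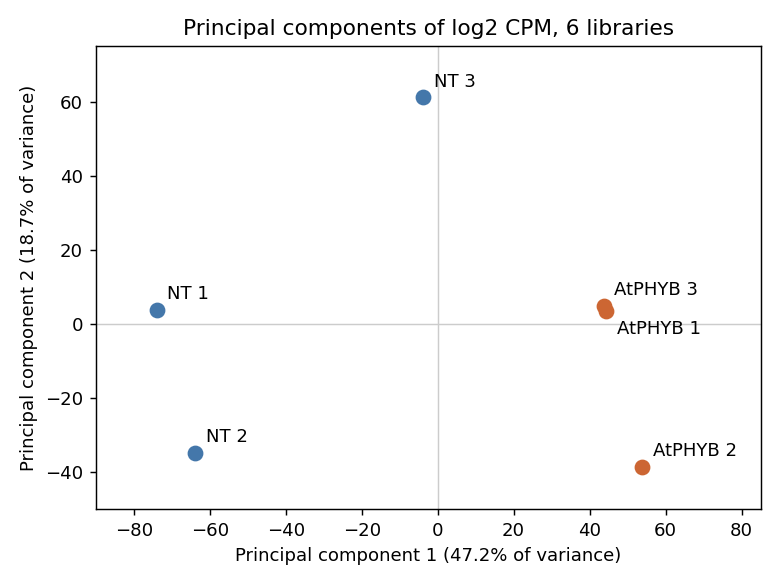
Principal components 1 (x, 47.2% of variance) and 2 (y, 18.7%) of log2 CPM in the 6 libraries, with NT in blue and AtPHYB in orange. NT replicates 1 and 2 sit at the left, the AtPHYB libraries at the right, and NT replicate 3 between them at -3.91 on the x axis.

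With all 6 libraries, 105 genes were higher (0.393% of those tested) and 94 lower (0.352%) in AtPHYB than in NT at an adjusted p under 0.05 (edgeR quasi-likelihood test with Benjamini-Hochberg adjustment), together 0.746% of the 26691 genes tested. These were mostly large changes. The median was 2.97-fold for genes that rose and 2.83-fold for genes that fell, and 157 of the 199 changed at least 2-fold. Over 4-fold changes were found at 39 of the genes that rose and 29 of those that fell, and none of the calls, 0 of 199, was under 1.5-fold. Across all genes tested, called or not, the median absolute log2 fold change was 0.24.

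The called genes had similar medians in all libraries of a genotype. Genes that rose had a median of 6.29, 6.57 and 7.39 CPM in NT replicates 1, 2 and 3, and of 21.3, 20.8 and 22.1 CPM in AtPHYB replicates 1, 2 and 3. Genes that fell had a median of 18.2, 18.7 and 14.9 CPM in the NT replicates and of 5.80, 5.63 and 6.22 CPM in the AtPHYB replicates. The test chose these genes for such a gap, so it is a description. All 199 called genes had AtPHYB libraries wholly above or wholly below the NT libraries, a pattern that 27.1% of all genes tested also showed, 3657 of them higher (13.7%) and 3587 lower (13.4%). At an unadjusted p under 0.05 stood 5515 genes, or 20.7% of those tested.

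The named IDs were the largest changes among calls with at least 10 reads in every library and a mean of at least 5 CPM. A call without NT replicate 3 was also required, but all 199 calls met that, so it removed none. Bra025598 had 0.887, 2.13 and 1.53 CPM in NT replicates 1, 2 and 3, and 26.0, 53.0 and 45.6 CPM in AtPHYB replicates 1, 2 and 3. Every AtPHYB library was far above every NT library, and NT replicate 3 lay inside the range of the other NT libraries. Its fitted change was 26.9-fold, or 4.75 ± 0.38 as log2 (standard error; edgeR adjusted p = 0.0105). In the G564E libraries, scaled together with all 9, it stood at 2.26 ± 0.282 CPM (SD, n = 3).

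Bra034024 had 6.32, 1.86 and 8.37 CPM in NT replicates 1, 2 and 3 and 146, 58.7 and 81.1 CPM in AtPHYB replicates 1, 2 and 3. The genotypes did not overlap, but levels within each varied more than for Bra025598. Its log2 fold change was 4.12 ± 0.57 (standard error; edgeR adjusted p = 0.0388), and its level in G564E was 21.2 ± 3.23 CPM (SD, n = 3).

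Among the genes that fell, Bra024871 had 39.6, 38.6 and 19.6 CPM in the NT replicates and 1.74, 2.18 and 1.56 CPM in the AtPHYB replicates. NT replicate 3 was the lowest NT library here, but remained far above AtPHYB. Its log2 fold change was -4.16 ± 0.32 (standard error; edgeR adjusted p = 0.00977). Bra016947 had 11.6, 10.4 and 7.34 CPM in the NT replicates and 0.767, 1.06 and 2.60 CPM in the AtPHYB replicates. NT replicate 3 was again lowest within NT. Its log2 fold change was -2.72 ± 0.44 (standard error; edgeR adjusted p = 0.0498), just inside the threshold. In G564E, Bra024871 stood at 38.6 ± 7.31 CPM and Bra016947 at 3.95 ± 1.31 CPM (SD, n = 3 each).

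**Figure D2:**
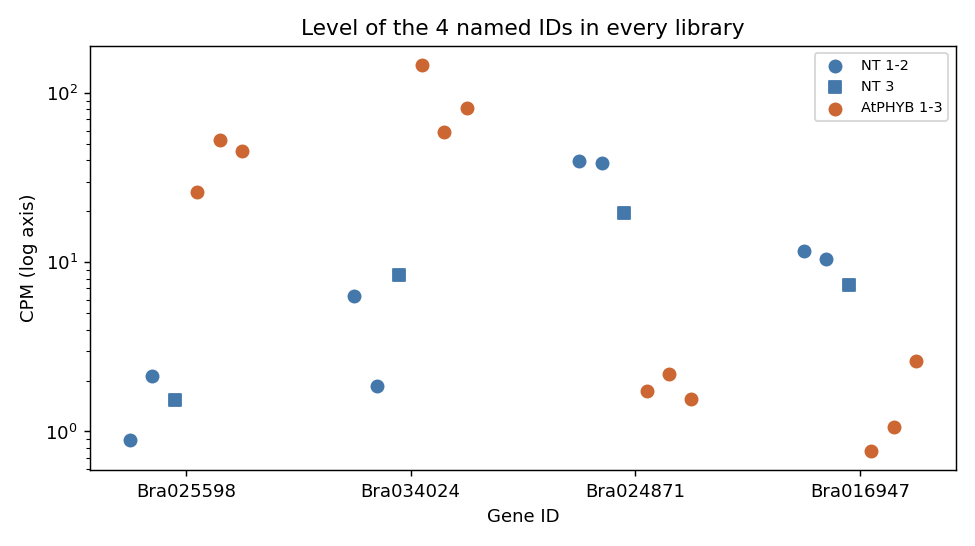
CPM (y, log axis) of the 4 named IDs (x) in each library, with NT in blue (replicate 3 as a square) and AtPHYB in orange, in the order of replicates 1, 2 and 3. At each ID the AtPHYB libraries lie wholly above or below the NT libraries, for example 26.0 to 53.0 against 0.887 to 2.13 CPM at Bra025598.

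Nearly silent genes were a minority of the calls. Of the genes that rose, 11 (10.5%) had at most 3 reads over the NT libraries together. Of those that fell, 5 (5.32%) had at most 3 reads over the AtPHYB libraries. The share of such genes among all genes tested was not worked out. Calls came from the whole abundance range. In 4 classes of equal size, ordered from low to high mean log2 CPM, 24, 21, 30 and 30 genes rose and 19, 26, 34 and 15 fell. The most abundant class thus held 30 rises against 15 falls, but 17 against 18 when libraries were scaled by library size alone. That scaling moved the median change over all genes to -0.10 on the log2 scale and turned the whole split to 57 higher and 88 lower.

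Without NT replicate 3 the count of called genes was 2769, with 1619 higher (5.94%) and 1150 lower (4.22%), or 10.2% of the 27253 genes tested (edgeR adjusted p under 0.05). All 199 genes called with 6 libraries were called again, in the same direction. The larger list reached smaller changes. The median was 1.88-fold for genes that rose and 2.20-fold for genes that fell, and 1379 of the 2769 changed at least 2-fold. Changes over 4-fold were 265 of the rises, or 16.4%, and 276 of the falls, or 24.0%. Of the 2652 genes of this list that were also tested with 6 libraries, 2649 had the same direction there, and 2466 had a larger absolute log2 fold change without NT replicate 3. Over all 26691 genes tested in both fits, 24422 had the same direction. The fits share all libraries but NT replicate 3, and the list was chosen in the fit without it. Both favour a shared direction and a larger change in that fit, so these counts are a description. The biological coefficient of variation common to all genes was 0.226 with 6 libraries and 0.195 without NT replicate 3.

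The larger list leaned toward abundant genes among the rises. From the lowest to the highest class of abundance, 198, 292, 468 and 661 genes rose and 260, 314, 338 and 238 fell, and the called share was 6.72%, 8.89%, 11.8% and 13.2%. The median size of called changes fell over the same classes, from 2.72 to 0.76 on the absolute log2 scale. Scaling by library size alone gave 157, 186, 304 and 456 rises and 271, 377, 523 and 505 falls, so that rises still increased with abundance but falls outnumbered them in every class, with 1103 rises and 1676 falls in all. Over all genes the median change was -0.01 (log2) with the TMM scaling used here and -0.13 with library size alone. By class, from low to high abundance, the median over all genes tested was -0.101, -0.036, -0.001 and 0.044 with TMM scaling. The rise with abundance was therefore not confined to called genes.

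Leaving out any other library lowered the count. The count was 24 without NT replicate 1 and 39 without NT replicate 2, and it was 11, 9 and 3 without AtPHYB replicates 1, 2 and 3 (edgeR adjusted p under 0.05, 0.0885%, 0.144%, 0.0404%, 0.0328% and 0.011% of genes tested). Of the 199 genes, 84 that rose and 83 that fell were called with all 6 libraries and without NT replicate 3 but in no other of these fits. Only 3, all higher, were called in all 7 fits; these had 0 to 30 reads in the NT libraries and 231 to 927 in the AtPHYB libraries. Bra025598 lost its call without AtPHYB replicate 2 or 3 (edgeR adjusted p = 0.0646 and 0.0956), and Bra024871 without AtPHYB replicate 1, 2 or 3 (0.0664, 0.0779 and 0.096). Bra034024 and Bra016947 lost theirs without any library other than NT replicate 3, with adjusted p of 0.0537 to 0.16 and of 0.0956 to 0.168. With NT replicate 3 out, the count of 2769 fell to 723 when AtPHYB replicate 3 was left out as well.

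The NT libraries were also set 1 at a time against the 3 AtPHYB libraries, with the lone library assumed to vary like the AtPHYB libraries, a comparison added after seeing the data. Against NT replicate 1 alone, 1107 genes were called (3.97% of those tested), and against NT replicate 2 alone 895 (3.21%). Against NT replicate 3 alone 13 genes were called (0.0469%; edgeR adjusted p under 0.05), and 2889 had an unadjusted p under 0.05, against 5961 and 5432 for the other NT libraries. The median absolute log2 fold change of all genes was 0.33, 0.31 and 0.24 for NT replicates 1, 2 and 3.

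Each library was then placed at genes it had not helped to choose. For every library left out, the genes called in the fit of the other 5 were taken, and its log2 CPM was placed on the line from the mean of the remaining libraries of its own genotype (position 0) to the mean of the other genotype (position 1). NT replicate 3 had a median position of 0.69 over 2769 genes, with quartiles of 0.40 and 0.95, and was nearer AtPHYB than its own genotype at 66.3% of them. The other left-out libraries had medians from -0.15 to 0.15, over 3 to 39 genes. They were nearer the other genotype at 0% to 33.3% of these, with the highest shares at NT replicate 2 (33.3%) and AtPHYB replicate 1 (27.3%). Because these lists differ in length, the 500 genes with the smallest p in each fit were compared too. All 500 of the fit without NT replicate 3 were called, but only 3 to 39 of each other list were. NT replicate 3 also helped to choose each of those other lists. The positions are therefore not like for like and are a description. On these, NT replicate 3 had a median position of 0.85, NT replicates 1 and 2 had 0.00 and 0.12, and AtPHYB replicates 1, 2 and 3 had 0.18, 0.11 and 0.16. NT replicate 3 was nearer the other genotype at 77.8% of its 500 genes, and the other libraries at 8.60% to 23.2%.

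**Figure D3:**
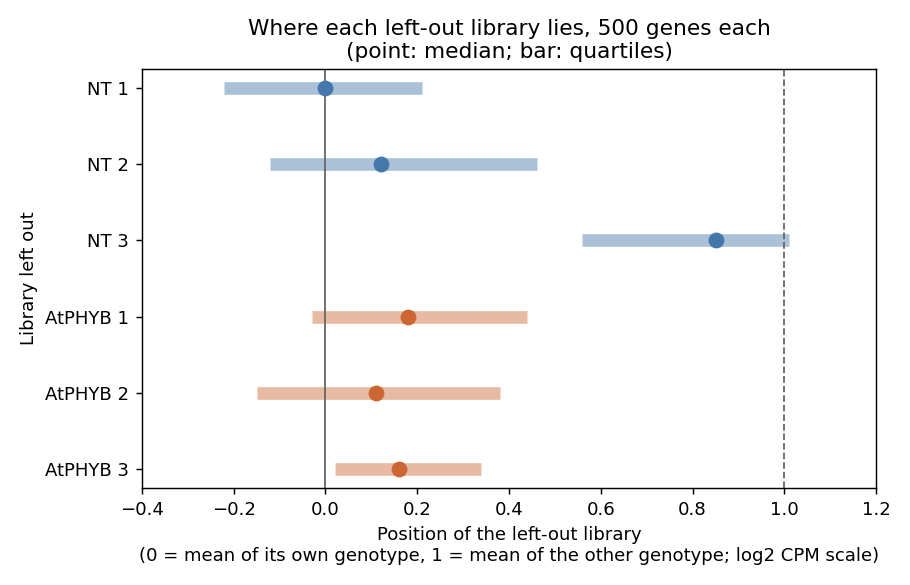
Position of each left-out library (x; 0 is the mean of its own genotype, 1 the mean of the other, on the log2 CPM scale) at the 500 genes with the smallest p in the fit of the other 5 libraries, as the median (point) and quartiles (bar). NT replicate 3 has a median of 0.85, and the other libraries lie between 0.00 and 0.18. NT replicate 3 helped to choose the lists of the other libraries, and most genes of those lists were not called.

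NT replicate 3 was not placed alike at all genes. Of the 2769 genes called without it, its position was under 0.25, close to NT replicates 1 and 2, at 455, between 0.25 and 0.75 at 1113, and over 0.75, close to AtPHYB, at 1201. The last group held 48.9% of the genes that rose and 35.6% of those that fell. The median position was 0.74 for genes that rose and 0.58 for genes that fell. By class it ranged from 0.63 to 0.76 over 4 classes of fold change and from 0.63 to 0.70 over 4 classes of abundance. NT replicate 3 lay inside the range of the AtPHYB libraries at 611 of these genes, or 22.1%, and inside the range of NT replicates 1 and 2 at 200, or 7.22%. These shares cannot be set against each other. The AtPHYB range spans more libraries, and the test favoured genes at which NT replicates 1 and 2 were close.

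**Figure D4:**
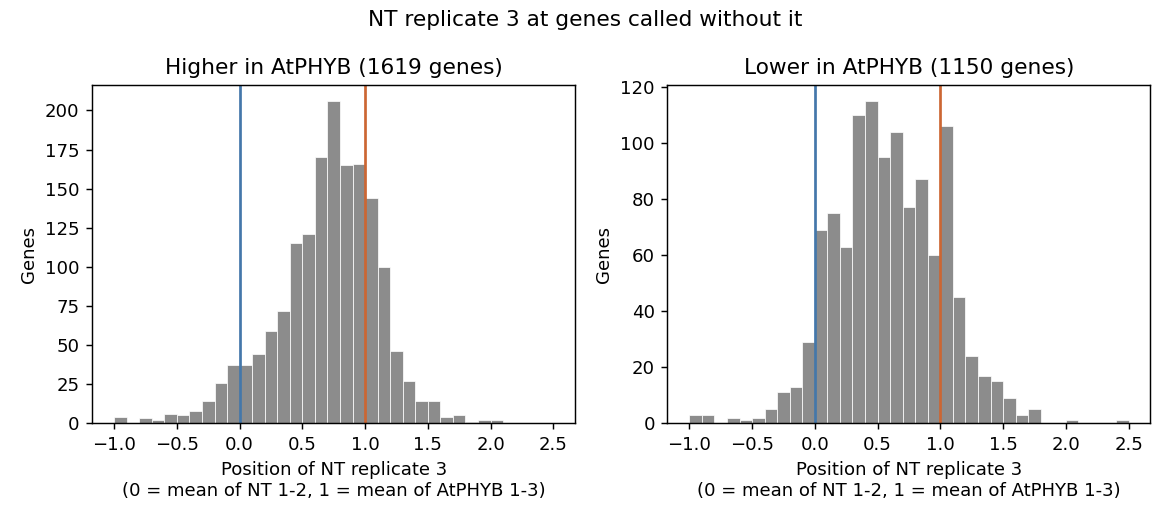
Number of genes (y) by the position of NT replicate 3 (x; 0, blue line, is the mean of NT replicates 1 and 2, and 1, orange line, the mean of AtPHYB) for the 1619 genes that rose (left) and the 1150 that fell (right) without it; 7 genes beyond the axis stand in the end bars. Medians are 0.74 and 0.58.

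At 2219 of the 2769 genes, or 80.1%, NT replicate 3 lay on the NT side of the AtPHYB mean, against 68.6% of all 27253 genes tested without it. The AtPHYB libraries had helped to choose the genes and to set the direction, which favours that side, so these shares are a description. The median log2 difference between AtPHYB and NT replicate 3, taken in the direction of the call, was 0.29, against 0.14 over all genes tested, and 409 of the 2769 genes differed at least 2-fold. Against NT replicates 1 and 2, which had helped to choose the genes, the median was 0.98 for each, with 1352 and 1346 genes at least 2-fold. In genes that rose, the median CPM was 14.9, 14.7 and 23.9 in NT replicates 1, 2 and 3, and 29.0, 29.7 and 28.5 in the AtPHYB replicates. In genes that fell it was 16.4, 16.4 and 10.4 in the NT replicates, and 7.40, 7.52 and 7.65 in the AtPHYB replicates. By these medians NT replicate 3 was thus between the genotypes in both directions, and the AtPHYB libraries were close to each other. Single genes were not all intermediate. Of the 541 genes that changed over 4-fold, the position of NT replicate 3 was close to AtPHYB at 273. It was between the genotypes at 158 of them, and close to NT replicates 1 and 2 at 110. What set NT replicate 3 apart was not tested, and it was kept in its labelled group.

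**Figure D5:**
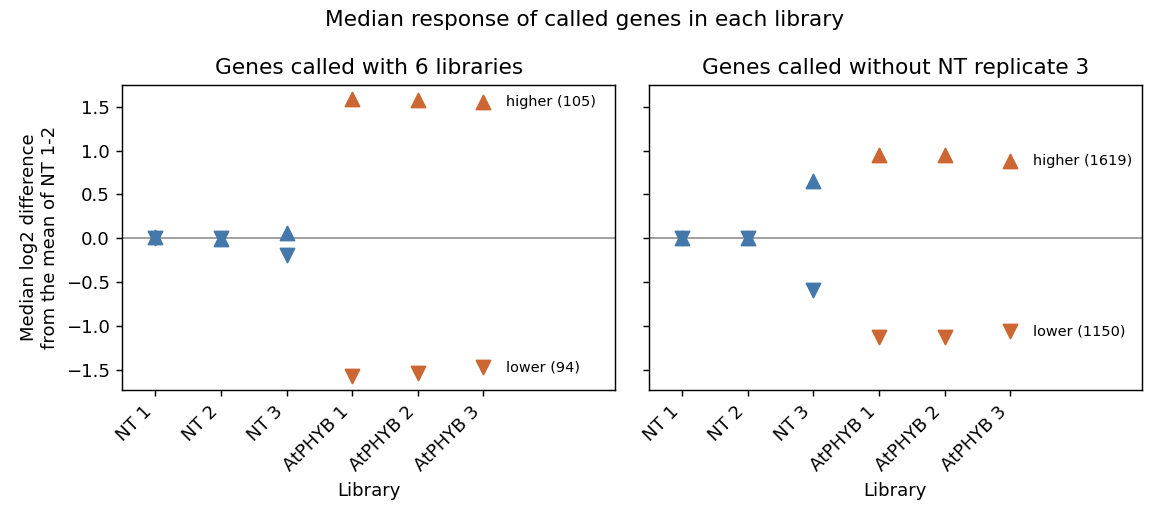
Median log2 difference from the mean of NT replicates 1 and 2 (y) in each library (x) for genes called higher (upward triangles) and lower (downward triangles), with all 6 libraries (left) and without NT replicate 3 (right). NT replicate 3 lies at 0.06 and -0.19 on the left and at 0.65 and -0.59 on the right, where AtPHYB lies at 0.88 to 0.95 and -1.13 to -1.06.

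The number of genes depended on the tool while NT replicate 3 was in. DESeq2 called 1809 genes with 6 libraries (872 higher and 937 lower, 6.17% of the genes to which it gave an adjusted p), including all 199, and 3923 without NT replicate 3.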

How the data were processed

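The authors deposited raw read counts for each gene ID, 1 library per file, as whole numbers without scaling. Per the submitters' processing notes, FastQC 0.11.8, Trimmomatic 0.39, TopHat2, HTSeq and edgeR were used; their settings, genome build and strand option were not given in the sources used here, and read sharing between duplicated Brassica genes was not examined. No sequences or coordinates were used.

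The analysis used edgeR 4.0.16 in R 4.3.3, with filterByExpr, TMM scaling and a quasi-likelihood fit of the 6 libraries of these genotypes, 2-sided; p-values were adjusted by Benjamini-Hochberg over every gene tested. Each fit with a library left out was filtered and scaled anew. Standard errors were derived from the log2 fold change and the root of its F statistic. CPM are on TMM-scaled library sizes, and log2 CPM uses a prior count of 2. DESeq2 1.42.0 and limma-voom (limma 3.58.1) were alternatives. The fits and the position measure were tested on simulated data. With 6 libraries the fit recovered 38% of planted 2-fold and 79% of planted 4-fold changes. Without NT replicate 3 it recovered 16% and 70%, at the dispersions of the 6-library fit. Each made 8 false calls, and their share of all calls was not worked out. Changes were planted only in genes with a mean of at least 1 CPM. In these simulated fits NT replicate 3 was drawn like the other NT libraries, unlike in the data, so the rates need not hold there. Libraries of a genotype differed beyond counting noise in every pair.

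The comparison, lists and rules were chosen with earlier results of these data known. The rule for named IDs gave the 2 highest and 2 lowest log2 fold changes among IDs called with 6 libraries and in every fit that leaves out 1. Only 1 ID that rose and 0 that fell qualified, so for both directions only the fit without NT replicate 3 was required. This was met by 77 and 65 IDs, along with groups that did not overlap, at least 10 reads per library and a mean of at least 5 CPM. Gene lists by symbol could not be filled without names.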

Additional observations from a re-analysis of the deposited data

How the results depend on the processing

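With 6 libraries, the 199 genes became 131 with a filter at a mean of 1 CPM, 53 with the G564E libraries added to the fit, 8 at an adjusted p under 0.01, 1809 in DESeq2, 3 to 2769 with 1 library left out, and 13 against NT replicate 3 alone (added after seeing the data). Without NT replicate 3, the 2769 genes became 783 with G564E added, 574 at an adjusted p under 0.01, 1379 with at least 2-fold change, and 723 to 2256 with 1 more library left out. With the replicate number as a block these counts were 21 and 438. Same-numbered NT and AtPHYB libraries had deviations from their group means that correlated at -0.10, 0.04 and 0.10. Differently numbered libraries had correlations of -0.19 to 0.11. With so few libraries these values cannot decide whether the numbers mark something shared, and the labels give the numbers no meaning. Genes that rose made up 52.8% of the calls with 6 libraries and 58.5% without NT replicate 3. These shares were 39.3% and 39.7% with library size alone, 75% at an adjusted p under 0.01 with 6 libraries, and 56.4% to 100% with 1 of the 6 left out. The other scaling, filter, threshold and limma-voom settings left each count within 1.5 times. The median position of NT replicate 3 was 0.85 on the 500 genes with the smallest p, and 0.66 and 0.64 with DESeq2 and with library size alone. On their DESeq2 lists, of 688 to 1158 genes, the other libraries had medians of 0 to 0.20. Over 56 refits of the 4 named IDs the direction stayed in 56 and the call was lost in 19, but they were chosen for groups without overlap. Besides the fits with a library left out, these losses were all at Bra016947, with edgeR adjusted p of 0.0549 for library size alone, 0.0564 for the stricter filter, 0.0776 with G564E added and 0.14 with the block. The cause of these changes was not tested. With 6 libraries 0 of the 199 called changes were under 1.5-fold. Without NT replicate 3, 191 rises and 115 falls of that size were called, and the reason was not tested.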

Other observations

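IDs numbered next to a called ID were called at a higher share than all genes tested, a difference given here without a test. ID numbers are not coordinates, and no position was drawn from them. With 6 libraries, 12 of the 254 tested neighbours of called IDs were called too, or 4.72%, against 0.746% of all genes tested. Without NT replicate 3 it was 626 of 3889 neighbours, or 16.1%, against 10.2%. Of the 576 called genes with a called neighbour in that list, 385 had one that changed in the same direction, and the longest run held 6 consecutive ID numbers. How often called genes share a direction regardless of ID number was not worked out, so the count of 385 is a description. Neighbours can share reads or be copies of each other, which was not tested.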
